A study of Mus musculus with 10 samples.

Results

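The genes described here are 41 genes of the neuronal cytoskeleton and of axonal transport, chosen by symbol for their function out of 26089 curated RefSeq genes outside chromosome Y. They were stathmins, tubulins, neurofilaments, microtubule-associated proteins, kinesins, dynein and dynactin subunits, ankyrins and spectrins, and proteins of the growth cone and of actin turnover. All 41 symbols were found in the RefSeq annotation of mm10 (GRCm38). A peak was tied to a gene if it overlapped the gene body or came within 5 kb of one of the gene's start sites.

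ChIP-seq, in which DNA bound by a protein is pulled down with an antibody and sequenced, was used to map the repressor REST in cortex from wild-type (WT) and 3xTg mice. The 3xTg line models Alzheimer's disease and carries human transgenes for APP with the Swe mutation and for tau with the P301L mutation, among other alleles, on a hybrid strain background that includes C57BL/6J. All mice were females of 11 months, and the paper calls the WT mice littermate controls. Each genotype had 4 replicates, each a pool of 4 cortices, and 1 input library of chromatin without immunoprecipitation. The tissue was bulk cortex, so neurons and glia were not separated, and more cells with REST on a gene cannot be told apart from more REST on the gene in each cell. The label could not be checked against marker genes, because peaks hold binding and not expression.

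The data are 1 peak list per genotype, called on the 4 replicates together, with 3006 peaks in WT and 5077 in 3xTg. Each peak has a fold enrichment, which is the ratio of ChIP signal at its summit to the local background. The depth of the libraries cannot be read from the lists, and no peak has a value per replicate. Differences between the lists were therefore given here without a replicate check or a test. The study also tested differential binding across the replicates, and the results of that test were not used here. The lists also ended at different values. The lowest fold enrichment was 6.0 in WT and 8.50 in 3xTg, so a peak between these values could be listed in WT alone.

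REST represses neuronal genes through a DNA element called RE1, most strongly outside the nervous system and in neural progenitors, and many of its classical targets encode proteins of the neuronal surface, the synapse and the cytoskeleton. Microtubules, neurofilaments and actin give axons and dendrites their shape. Kinesins carry cargo along microtubules away from the cell body, and dynein with its partner dynactin carries cargo back. Ankyrins and spectrins tie membrane proteins to the submembrane skeleton.

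Of the 41 genes, 12 had a WT peak (29.3%), against 9.30% of all RefSeq genes. A 3xTg peak was tied to 17 genes (41.5%), against 14.2% of all genes. A peak of either list was found at 19 genes (46.3%, against 15.7% of all genes) and peaks of both lists at 10 (24.4%, against 7.78%). The remaining 22 genes had no peak in either list. Among protein-coding genes alone the background was 10.3% for WT and 15.7% for 3xTg. No test was made of these shares, since the genes were not drawn from the genome. They were picked by function, with earlier results of these data known.

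Gene length differed between the groups of genes compared. The median gene body was 49.0 kb for the 41 genes and 13.5 kb for all genes, and a longer body has more room for a peak. Of the 13 cytoskeleton genes shorter than 20 kb, 4 had a WT peak and 3 a 3xTg peak, against 6.16% and 9.0% of all genes of that length. Of the 17 genes of 20 to 100 kb, 2 had a WT peak, near the 10.7% of all such genes, and 6 had a 3xTg peak, against 16.8%. Of the 11 genes longer than 100 kb, 6 had a WT peak and 8 a 3xTg peak, against 24.9% and 39.2%. The cytoskeleton genes were thus above the background of their own length class in 5 of these comparisons and close to it for WT peaks at genes of intermediate length. Within 5 kb of a start site, 9 genes had a WT peak and 9 had a 3xTg peak, against 6.72% and 9.87% of all genes. This window has a fixed size around each start, but a gene with more start sites has more windows. Ank2 and Sptbn4, for example, have 4 start sites each. The part of gene length and of the number of start sites in these shares was not tested.

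**Figure D1:**
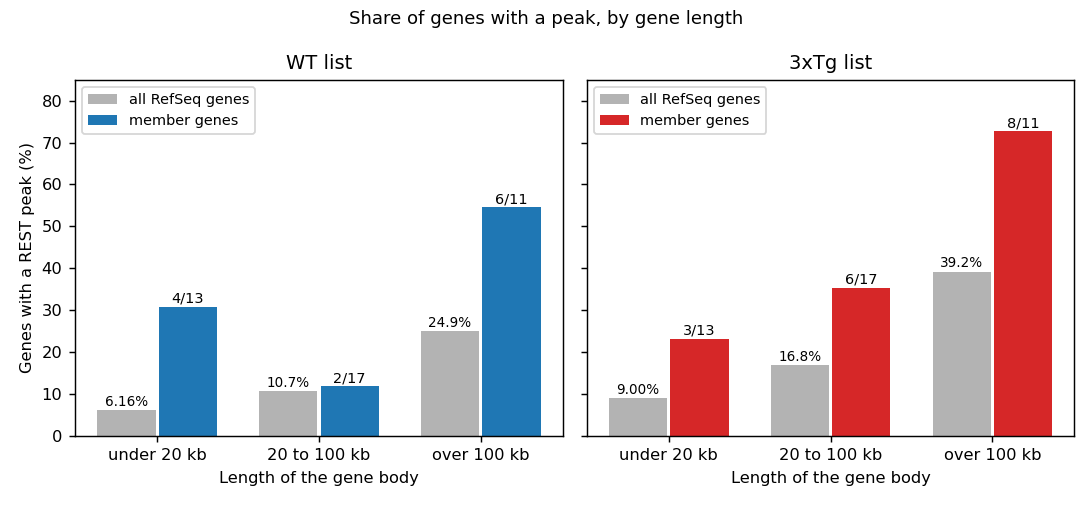
Percent of genes with a REST peak in their body or within 5 kb of a start, for all RefSeq genes (grey) and for the 41 cytoskeleton and transport genes (coloured), in 3 classes of gene body length for the WT list (left) and the 3xTg list (right). Numbers above the coloured bars are genes with a peak over genes in the class, and the shares rose with length among all genes, from 6.16% to 24.9% in WT and from 9.0% to 39.2% in 3xTg.

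The 4 stathmins bind tubulin dimers and promote the disassembly of microtubules. Stmn2, the neuronal stathmin of growth cones, was the one stathmin with a peak. It lay in intron 1 at chr3:8513193-8514044, in the 3xTg list alone, with its summit 4236 bases downstream of the start. Its fold enrichment was 8.63, close to the lower end of that list (rank 4821 of 5077, with ties given the same rank). Stmn1, Stmn3 and Stmn4 had no peak. For Stmn3 the nearest 3xTg peak was 5145 bases from the gene body, just outside the 5 kb limit, whereas the closest in WT was at 205168 bases.

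Tubulins are the subunits of microtubules, and 2 of the 5 listed had a peak, each in another list, against 15.7% of all genes with a peak of either list. At Tubb2a, a beta-tubulin that is abundant in neurons, a WT peak at chr13:34077681-34078224 covered the start site, with a fold enrichment of 6.11 (rank 2737 of 3006). At Tuba1a, the main alpha-tubulin of developing neurons, a 3xTg peak at chr15:98952760-98954064 covered the start site with a fold enrichment of 9.49 (rank 3669 of 5077). Both peaks lay low in their lists, and neither had a counterpart in the other genotype. Tubb3, Tubb2b and Tubb4a had no peak. The 250 bases upstream of the 2 bound starts are shown in the direction of transcription, since each lies wholly or mostly in a peak, with CpG dinucleotides in capitals (RefSeq, GRCm38.p6). They held 22 CpG at Tubb2a (chr13:34078009-34078258, minus strand, 68.4% G and C) and 11 at Tuba1a (chr15:98953502-98953751, minus strand, 56.8% G and C).
Tubb2a: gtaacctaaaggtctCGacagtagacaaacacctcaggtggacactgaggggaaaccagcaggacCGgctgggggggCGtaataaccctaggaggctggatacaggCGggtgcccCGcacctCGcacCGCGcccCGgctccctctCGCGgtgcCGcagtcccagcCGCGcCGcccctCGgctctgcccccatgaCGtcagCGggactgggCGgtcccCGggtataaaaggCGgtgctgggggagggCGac
Tuba1a: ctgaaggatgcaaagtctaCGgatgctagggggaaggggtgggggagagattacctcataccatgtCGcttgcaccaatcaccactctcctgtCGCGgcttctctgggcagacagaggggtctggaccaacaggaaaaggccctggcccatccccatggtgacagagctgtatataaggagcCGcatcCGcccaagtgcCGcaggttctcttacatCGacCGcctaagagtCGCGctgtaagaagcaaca

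Neurofilaments are the intermediate filaments of axons and set axon calibre. Ina, which encodes alpha-internexin, had the highest WT fold enrichment of any peak at the 41 genes. The WT peak at chr19:47016302-47017007 reached 11.5 (rank 390 of 3006) and the overlapping 3xTg peak at chr19:47015690-47016906 reached 23.0 (rank 328 of 5077). Both summits lay in intron 1 of Ina, 39 bases apart, and were closer to a start of the neighbouring gene Nt5c2 (1494 and 1533 bases) than to that of Ina (1987 and 2026 bases). Nefh, the heavy neurofilament subunit, had a WT-only peak at chr11:4949167-4949777. Its summit was 1336 bases upstream of the Nefh start and 1879 bases from the start of Ap1b1, with a fold enrichment of 6.11 (rank 2722). The light and medium subunits, Nefl and Nefm, had no peak, and the peak nearest to the body of Nefm was 25979 bases away.

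Of the 7 microtubule-associated genes, 2 had peaks in both lists and 2 more in 3xTg alone, against 7.78% and 6.42% of all genes. Map2, which stabilises microtubules in dendrites, had a peak in intron 3 in both lists. Its fold enrichment was 8.13 in WT (chr1:66279621-66279994, rank 1045) and 13.1 in 3xTg (chr1:66279300-66280057, rank 1470). A second Map2 peak in intron 2 was listed in 3xTg alone (chr1:66205581-66206039, fold enrichment 8.63). Each Map2 peak lay more than 30 kb from any Map2 start.

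Map4, a microtubule stabiliser found in many cell types, had the most WT peaks of these genes together with Ank2 and Cfl1, namely 2. A peak in intron 14 was listed in 3xTg alone (chr9:110070780-110071567, fold enrichment 13.0, rank 1509). A shared peak covered an internal start site and was the widest peak of the 41 genes in either list, 2535 bases in WT (chr9:110051619-110054153, fold enrichment 8.51) and 4578 bases in 3xTg (chr9:110051235-110055812, fold enrichment 13.0, rank 1513). Its summits in the 2 lists were 1992 bases apart, whereas the median distance over all 2504 shared WT peaks was 33.0 bases. A second shared peak, in intron 1, had a fold enrichment of 7.56 in WT (chr9:109968501-109969728) and 11.6 in 3xTg (chr9:109968321-109970247).

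Map6 encodes a protein that makes microtubules resistant to cold. It had a 3xTg-only peak in intron 1 at chr7:99302172-99302733 with a fold enrichment of 12.3. Mapre2, of the family that binds growing microtubule ends, had a 3xTg-only peak in intron 4 at chr18:23854218-23854630 with a fold enrichment of 11.7. Map1a and Map1b, which bind along microtubules in dendrites and axons, and Mapre3, a relative of Mapre2, had no peak.

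Of the 8 kinesin genes 2 had a peak of either list, and of the 2 dynein and dynactin genes 1, against 15.7% of all genes. Kif5c, a heavy chain of the kinesin that drives fast axonal transport, had a shared peak in intron 1. Its fold enrichment was 8.13 in WT (chr2:49625673-49626317, rank 1045 of 3006) and 13.6 in 3xTg (chr2:49625363-49626224, rank 1354 of 5077), with summits 6618 and 6555 bases from the start. Kif1a, which carries precursors of synaptic vesicles, had a 3xTg-only peak at chr1:93086904-93087778 with a fold enrichment of 12.6, whose near edge was 4424 bases from an internal start. The other heavy chains Kif5a and Kif5b, the light chain gene Klc1, the Kif1a relative Kif1b, and the kinesin-2 genes Kif3a and Kif3c had no peak. Dync1i1, a neuronal intermediate chain of dynein, had 2 peaks in 3xTg and none in WT. The first, in intron 5 (chr6:5832785-5833279), had a fold enrichment of 13.8 and the second, in intron 15 (chr6:6011199-6011821), one of 10.4. The 13.8 at Dync1i1 was the highest of the 3xTg-only peaks at these genes. Dctn1, the largest dynactin subunit, had no peak.

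Of the 5 ankyrin and spectrin genes, 3 had peaks of both lists, against 7.78% of all genes. They held the most 3xTg peaks of the groups, 7, together with the microtubule-associated genes. Of these 7, Ank2 (577.5 kb) held 4 and Ank3 (493.7 kb) 2. Ank3 encodes ankyrin-G, which organises the axon initial segment. Its intron 1 held a WT peak at chr10:69611617-69612334 with a fold enrichment of 8.62 (rank 901 of 3006) and an overlapping 3xTg peak at chr10:69611557-69612626 with one of 23.6 (rank 298 of 5077), with summits 21 bases apart. The 23.6 was the highest value at any of the 41 genes. This pair differed more between the lists than most. The fold enrichment in 3xTg was 2.74 times that in WT, and 98.4% of all shared pairs had a lower ratio. A further Ank3 peak in the same intron was listed in 3xTg alone (chr10:69741992-69742662, fold enrichment 8.63).

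Ank2 encodes ankyrin-B, which acts along the axon shaft, and at 577.5 kb it was the longest of the 41 genes. It had 2 WT peaks and 4 3xTg peaks. The highest value was that of a 3xTg-only peak in intron 1, at chr3:127292371-127292983 with a fold enrichment of 12.4. A shared peak over an internal start had a fold enrichment of 7.55 in WT (chr3:126997746-126998637) and 12.3 in 3xTg (chr3:126997684-126998727). Another 3xTg-only peak in intron 1, at chr3:127155537-127156802, had a fold enrichment of 9.67. Its summit was 5559 bases from the start of Gm16958, whereas the edge of the peak was 157085 bases from any Ank2 start. The second WT peak lay in intron 14 (chr3:127019008-127019745, fold enrichment 6.05) and overlapped the remaining 3xTg peak.

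Sptan1, the alpha-spectrin of the brain, had a peak in each list, but at different places. The WT-only peak at chr2:29965202-29965464 was the narrowest in either list at these genes (263 bases), lay 96 bases upstream of the start and had a fold enrichment of 6.05. The 3xTg-only peak lay in intron 1 (chr2:29972237-29972887) with a fold enrichment of 12.8. The beta-spectrins Sptbn1 and Sptbn4, the second of which sits at the axon initial segment and nodes, had no peak.

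**Figure D2:**
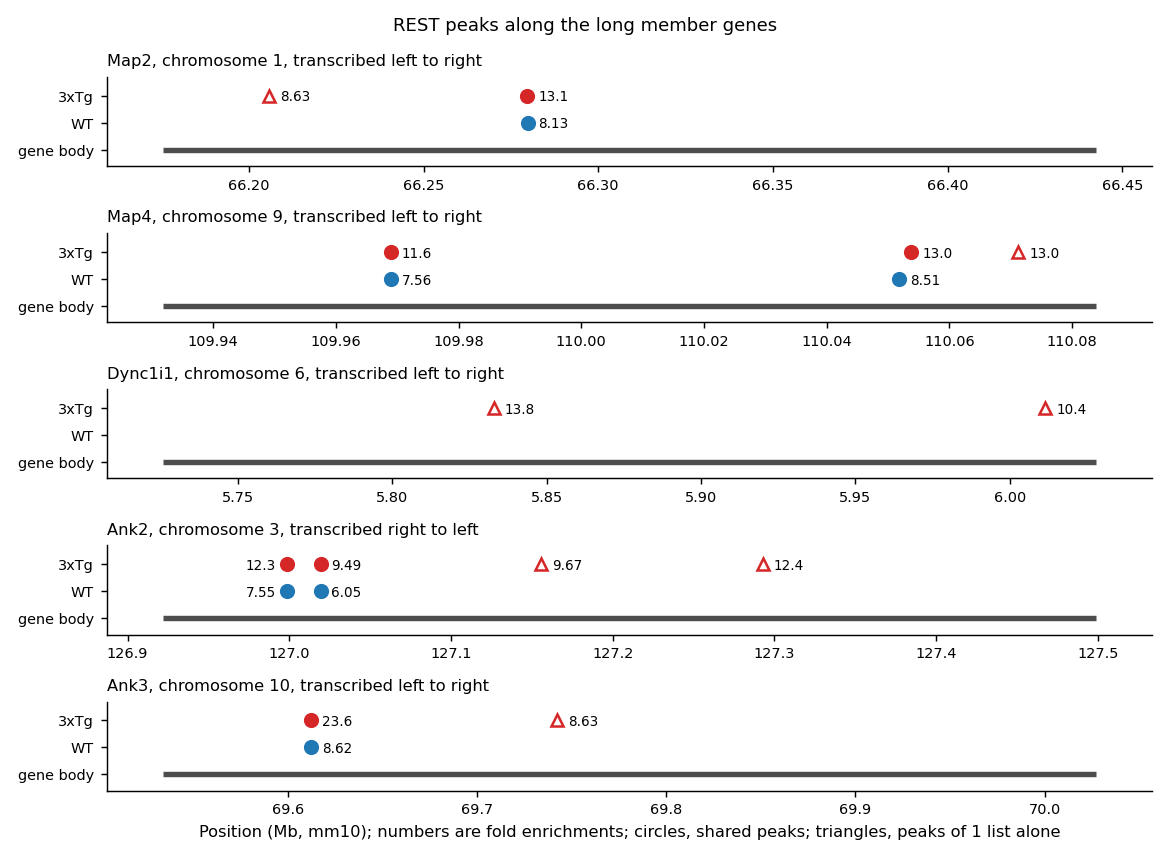
Positions of REST peak summits along Map2, Map4, Dync1i1, Ank2 and Ank3 in Mb of mm10, in the WT list (blue) and the 3xTg list (red), with the gene body as a grey bar and the fold enrichment beside each summit. Circles are shared peaks and triangles peaks of 1 list alone, and each WT peak drawn has a 3xTg peak that overlaps it.

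Among the growth cone and actin genes, Crmp1 had the strongest peaks. It encodes a collapsin response mediator that relays semaphorin signals in axon guidance. The summits lay in intron 1, with a fold enrichment of 11.3 in WT (chr5:37242406-37244147, rank 405 of 3006) and 15.4 in 3xTg (chr5:37241561-37244979, rank 985 of 5077). They were 1 base apart, and the 3xTg peak also covered the first start site. The 3xTg value was 1.35 times the WT value, the lowest ratio among the 10 shared pairs at these genes.

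Dpysl2, which encodes the related protein CRMP2 that promotes microtubule assembly, had unrelated peaks in the 2 lists. The WT-only peak (chr14:66868259-66869391, fold enrichment 6.24) covered an internal start, and its summit was closer to the start of Gm5464 (342 bases) than to any of Dpysl2. The 3xTg-only peak lay in intron 7 (chr14:66823696-66826040, fold enrichment 9.85). Dpysl3 of the same family and Gap43, an abundant protein of growth cones, had no peak.

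Cfl1 encodes cofilin, which severs actin filaments, and Limk1 encodes the kinase that inactivates cofilin. A WT-only peak at chr19:5487898-5488598 was tied to Cfl1 with a fold enrichment of 6.52, but its summit lay 81 bases from the start of Mus81 and 2157 bases from that of Cfl1. A shared peak covered the Cfl1 start with a fold enrichment of 6.15 in WT (chr19:5490033-5490544) and 9.79 in 3xTg (chr19:5489911-5492498). Limk1 had a 3xTg-only peak at chr5:134688650-134689324, whose edge was 60 bases from a start, with a fold enrichment of 11.6.

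**Figure D3:**
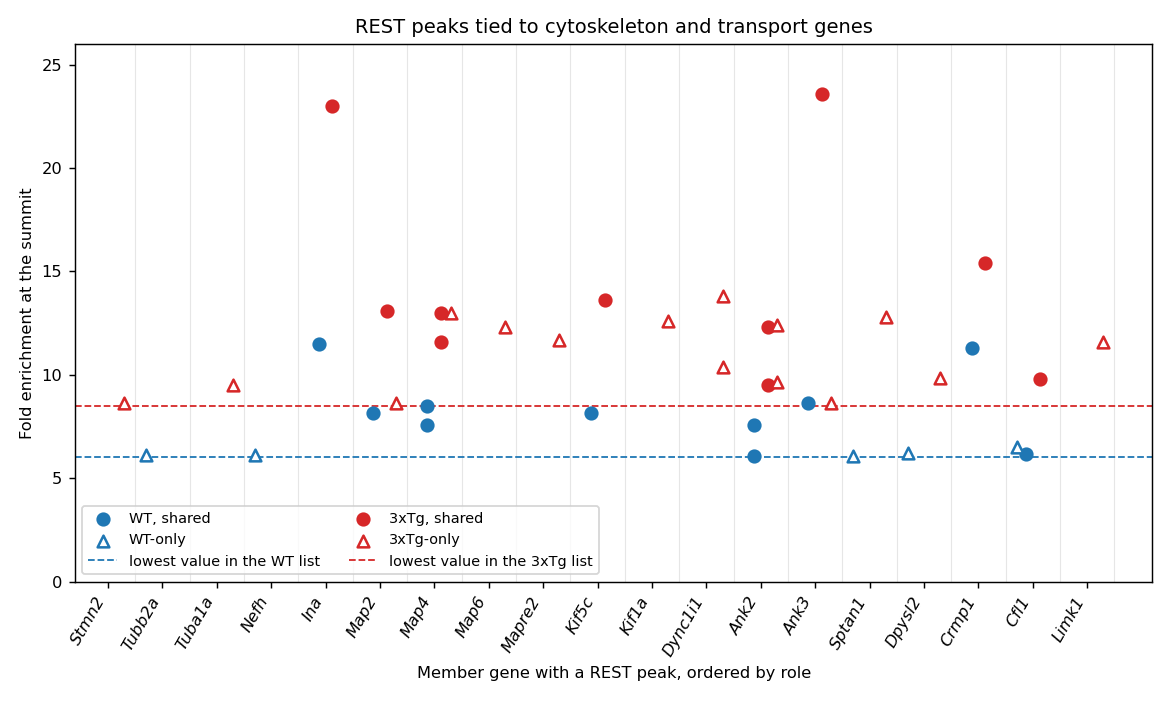
Fold enrichment at the summit of each REST peak tied to the 19 genes with a peak, in WT (blue) and 3xTg (red). Filled circles are shared peaks, open triangles peaks of 1 list alone, and dashed lines the lowest value in each list (6.0 in WT and 8.50 in 3xTg), and the 5 WT-only peaks lie between these lines.

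In all, 15 WT peaks and 25 3xTg peaks were tied to the 41 genes. Of the 25 3xTg peaks, 10 were shared (40%) and 15 were 3xTg-only (60%). Over all 3xTg peaks tied to any gene, 48.8% were shared and 51.2% were 3xTg-only. Of the 15 WT peaks, 10 were shared (66.7%) and 5 were WT-only (33.3%), against 82.1% and 17.9% of all WT peaks tied to a gene. Counted by gene, 8 genes had a shared peak, 2 had peaks of both lists that did not overlap (Sptan1 and Dpysl2), 2 had WT peaks alone (Tubb2a and Nefh) and 7 had 3xTg peaks alone (Stmn2, Tuba1a, Map6, Mapre2, Kif1a, Dync1i1 and Limk1). Of all genes, 1.52% had WT peaks alone and 6.42% had 3xTg peaks alone, against 4.88% and 17.1% of the 41.

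The classes differed in fold enrichment within each list. All 5 WT-only peaks at these genes had fold enrichments from 6.05 to 6.52, below the lowest value in the 3xTg list, as did 99.0% of the 502 WT-only peaks of the genome. A 3xTg signal of equal height at these places would not have been listed. Most WT peaks this low did overlap a 3xTg peak, however, 75.8% of the 2056 in the whole list and 6 of the 11 at these genes. The REST signal of 3xTg at the 5 places was not analysed here, so a lower signal and one just under the limit cannot be told apart. The 15 3xTg-only peaks had fold enrichments from 8.63 to 13.8 with a median of 11.6, whereas the median of all 3xTg-only peaks tied to a gene was 9.67. The WT signal at these places was not analysed here. All 3 peaks above 15 in 3xTg, at Ina, Ank3 and Crmp1, were shared, as were 95.8% of all 3xTg peaks above 15.

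In each of the 10 shared pairs the 3xTg fold enrichment was the higher one, with a median ratio of 1.60. In 6 of these pairs the WT value lay under 8.50, the lowest in the 3xTg list, so no other order was possible. The same held for 1559 of all 2504 shared WT peaks. Over all 2504 shared WT peaks the median ratio was 1.70, with 5% of pairs below 1.24 and 5% above 2.41. Of the 10 pairs, 8 lay below this median, from 1.35 at Crmp1 to 1.68 at Kif5c. The other two were Ina, at 1.99, and Ank3, the one pair above the upper of these limits.

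The position of the peaks relative to start sites also differed between the classes. In WT, 7 of the 15 summits lay within 1 kb of a start of some gene (46.7%, against 46.9% of all WT peaks tied to a gene). In 3xTg, 4 of the 25 summits did so (16.0%, against 39.8%). Of the 5 WT-only summits 4 were this close to a start, and of the 15 3xTg-only summits 2, those at Tuba1a and Limk1. Over all peaks tied to a gene, 66.6% of WT-only and 37.5% of 3xTg-only summits were within 1 kb of a start. Introns held 10 of the 15 WT summits and 22 of the 25 3xTg summits, with 6 and 12 of them in the first intron. Over all pairs of a gene and a peak tied to it, 47.9% of summits in WT and 53.8% in 3xTg lay in an intron of the gene, and 20.1% and 21.3% in its first intron. The 41 genes are longer than most, and the part of length in this was not tested. No summit at these genes lay in a coding exon, where 1.8% and 1.4% of all pairs had theirs.

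Base composition also differed between the classes. The median G and C content of the peaks was 49.6% in WT and 44.2% in 3xTg, against 50.3% and 48.2% of all peaks tied to a gene. The ratio of observed to expected CpG had a median of 0.668 in the 5 WT-only peaks and 0.197 in the 15 3xTg-only peaks, and of 0.681 and 0.316 over all WT-only and 3xTg-only peaks tied to a gene.

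The RE1 element was searched as the 20-base consensus of REST, on both strands and over the whole peak, with at most 5 mismatches. It was found in 3 of the 15 WT peaks (20%), at Ina, Crmp1 and Nefh, against 7.17% of all WT peaks tied to a gene. It was found in 2 of the 25 3xTg peaks (8.0%), at Ina and Crmp1, against 6.37%. In windows of the same width 10 kb downstream it was found for none of the 15 WT peaks and 1 of the 25 3xTg peaks, and for 1.59% and 2.28% of all peaks tied to a gene. Most of the peaks at these genes, like most in each list, held no sequence this close to the consensus. The shorter sequence TCAGCACC, from one end of the element, was present on either strand in 2 WT peaks and 1 3xTg peak, against 8.42% and 8.86% of all peaks tied to a gene. In the windows 10 kb downstream it was found for 6.67% of the WT and 8.0% of the 3xTg peaks at these genes, and for 3.53% and 5.38% of all. The sequence GGACAGC, from its other end, was present in 6 WT peaks (40%) and 7 3xTg peaks (28%), against 19.2% and 24.6% of all peaks tied to a gene. It was about as frequent in the downstream windows, with 33.3% and 20% at these genes and 18.9% and 25.4% over all.

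The 3 matches had 2 mismatches at Ina and 3 each at Crmp1 and Nefh, and all lay close to a summit. The middle of the match was 17 bases from the WT summit at Ina, 25 at Crmp1 and 9 at Nefh. The 120 bases around each match are shown 5′ to 3′ on the strand of the element (mm10), since these are the peaks at the 41 genes with a sequence close to RE1. Capitals mark the bases of the match that equal the consensus, and lower case within it marks mismatches. The Ina window is chr19:47016625-47016744 (plus strand, intron 1), the Crmp1 window chr5:37243520-37243639 (plus strand, intron 1) and the Nefh window chr11:4949349-4949468 (minus strand, upstream of the gene).
Ina: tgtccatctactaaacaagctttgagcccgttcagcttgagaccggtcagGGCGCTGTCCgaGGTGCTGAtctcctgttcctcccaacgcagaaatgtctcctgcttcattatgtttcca
Crmp1: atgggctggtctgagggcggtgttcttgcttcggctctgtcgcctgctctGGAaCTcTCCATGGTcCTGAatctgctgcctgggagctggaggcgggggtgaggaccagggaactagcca
Nefh: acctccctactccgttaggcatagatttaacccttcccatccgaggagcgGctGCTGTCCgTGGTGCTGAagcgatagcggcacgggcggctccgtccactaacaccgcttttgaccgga

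The search was also run in the other direction, from close RE1 matches to peaks, a choice made after the peaks were seen. With at most 3 mismatches, 9 matches lay in the bodies of the 41 genes or within 5 kb of their starts, and 3 of the 9 were in a peak (33.3%), those at Ina, Crmp1 and Nefh. Of the 742 such matches tied to any gene, 131 were in a peak of either list (17.7%). The other 6 matches were without a peak. They lay 1286 bases upstream of the Stmn2 start (2 mismatches), 731 bases upstream of the Nefm start (2), 1944 bases from a start of Klc1 (3), in coding exon 1 of Stmn3 (3), 93 bases from an internal start of Sptbn4 (3) and in intron 1 of Dpysl2 (3). Stmn2 is a gene at which an element of this kind was described early in the study of REST. Its match was 4943 bases from the nearest 3xTg peak, the one in Stmn2 intron 1. The 2 matches with 2 mismatches and no peak are shown beside that of Ina, which lay in a peak of both lists. Mismatches are in lower case, and each match is shown on the strand of the element.
Stmn2, chr3:8508231-8508250, minus strand, no peak: aGCGCTGTCCgTGGTGCTGA
Nefm, chr14:68125725-68125744, minus strand, no peak: GGCGCTGTCCtTGGTGCTGc
Ina, chr19:47016675-47016694, plus strand, peak in both lists: GGCGCTGTCCgaGGTGCTGA

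Among these genes the number of mismatches did not separate matches in a peak from those without. Matches with 2 and with 3 mismatches were found in both classes. Across the genome, 29.5% of matches with 1 mismatch, 21.7% with 2 and 12.3% with 3 were in a peak of either list, and neither of the 2 without a mismatch was.

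In a wider list of 98 other genes of the same systems, 18 had a WT peak (18.4%, against 9.30% of all genes) and 27 a 3xTg peak (27.6%, against 14.2%). These shares lay between those of all genes and those of the 41 genes. The median length of the 98 genes was 36.3 kb, also between the other 2 medians. Microtubule-associated genes had a WT peak at 5 of 18 and a 3xTg peak at 7, and growth cone and actin genes at 5 and 7 of 19. Dynein and dynactin genes had peaks at 5 and 6 of 23, kinesins at 1 and 3 of 15, tubulins at 1 and 2 of 10, ankyrins and other spectrin-binding genes at 1 and 2 of 8, and the 5 further intermediate filament genes at none. The 10 genes with the highest values began with Add3, an adducin that caps actin at the spectrin skeleton, whose strongest peak had a fold enrichment of 29.1 in WT and 45.9 in 3xTg, above every peak at the 41 genes. In 3xTg they went on with Katna1, the microtubule-severing katanin (23.6), Trak1, an adaptor for mitochondrial transport (21.2), Dclk1 (19), Basp1 (16.7), Wasf1 (16.6), Dclk2 (15.7), Tubb5 (15.6), Dctn3 (15.5) and Limk2 (13.7). The peak at Limk2, like that at its relative Limk1, was 3xTg-only, and the strongest peaks of the other 9 were shared. The summits at Wasf1 lay closer to a start of Cdc40 than to that of Wasf1, which was 2940 bases away in WT and 2969 in 3xTg. Dclk1, a kinase related to doublecortin, had 7 WT and 8 3xTg peaks.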

How the data were processed

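The authors sequenced single-end reads, aligned them to mm10 (the methods name STAR 2.7.0a; the submitters' processing notes also list BWA, for replicates 1 and 2 and the inputs), called peaks with MACS on the 4 replicates of a genotype together and removed blacklisted regions. The deposited lists give for each peak a summit offset, a score, a fold enrichment (ratio) and a q-value as its −log10. The stated filter was a fold enrichment over 5 and q under 0.01, but the lists end higher, at a fold enrichment of 6.0 and a −log10 q of 13.3 in WT and at 8.50 and 29.0 in 3xTg, for a reason not given in the sources used here. Peaks on chromosome Y (4 WT and 9 3xTg) were left out.

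Start sites and gene bodies came from curated RefSeq transcripts. Peaks were shared if they overlapped by at least 1 base. All 41 genes are named, with up to 3 peaks per list highest first and a count of any others, and from the wider list the 10 genes with the highest fold enrichment. The genes and lists were chosen with earlier results of these data known. Protein-coding genes as background, the search for close RE1 matches, the tubulin sequences and neighbouring genes were chosen after their values were seen. Alternatives were other ties of peaks to genes, stricter thresholds, another overlap, a 3xTg list as long as the WT list, and other RE1 settings. Python 3.11.15, numpy 2.4.6, pandas 2.3.3, pysam 0.24.0, matplotlib 3.10.9, samtools 1.23.1 and bedtools 2.31.1 were used, and the programs were tested on simulated data.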

Additional observations from a re-analysis of the deposited data

How the results depend on the processing

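No paired analysis was possible because the lists pool the replicates, and for the same reason no replicate could be left out. Of 40 alternatives, 28 stayed within 1.5 times the reported count. A q under 1e-05 removed no peak. Within 1 kb of a start, 7 genes had a WT peak (against 12 as reported, and 5.32% of all genes) and 6 a 3xTg peak (against 17, and 7.84%), and within 5 kb of a start 9 had a 3xTg peak (9.87%). With fold enrichment over 10, 2 genes had a WT peak (1.91% of all genes), 2 3xTg peaks were shared (18.1% of all 3xTg peaks tied to a gene) and 0 WT peaks were WT-only (0.677% of all). With both lists limited to fold enrichments of at least 8.50, an alternative chosen after seeing the data, 4 genes had a WT peak (3.01%), 4 3xTg peaks were shared (18%) and 0 were WT-only (0.568%). These limits remove far more WT than 3xTg peaks, leaving 598 and 3212 at 10 and 950 and 5077 at 8.50. With as many 3xTg peaks as WT peaks, 9 were 3xTg-only instead of 15, while the share over all peaks tied to a gene went from 51.2% to 32.2%. With an overlap of 50% of both peaks, 8 were WT-only instead of 5, while that share went from 17.9% to 43.1%. With at most 6 mismatches, 7 3xTg peaks held an RE1 site instead of 2, and 18.7% of all 3xTg peaks tied to a gene did.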

Other observations

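The lists hold peaks above a limit, so a gene without a peak may still have had REST signal below it. The genotypes differ in the number of peaks and in the lowest fold enrichment listed, and the part of depth or background in this was not tested. A peak in a gene body can belong to another gene. In 3 of the 15 WT peaks and 3 of the 25 3xTg peaks the summit was nearer to a start of a gene outside the 41. Each value comes from 1 pooled list, and the spread between animals is unknown.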
